A study of Mus musculus with 70 samples.

Results

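The genes described here encode enzymes and transporters of glycolysis, pyruvate metabolism and the tricarboxylic acid (TCA) cycle. They were chosen by name, as a list of 40 gene symbols, drawn up with earlier results of these data known, and no measured value entered the rule. All 40 were found among the 22835 genes of the deposited pituitary RNA-seq table, and 39 of them were among the 13145 genes with more than 1 CPM in all 18 libraries and were tested, where CPM is the number of reads of a transcript scaled to a common library total. The exception was Gapdh, which exceeded 1 CPM in 6 libraries.

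RNA was measured in whole pituitary glands of adult male C57BL/6J mice, with 3 pituitaries in each library. All mice were made hypothyroid with methimazole (MMI) and potassium perchlorate, which block hormone synthesis in the thyroid, and the hyperthyroid groups also received triiodothyronine (T3), the active thyroid hormone, in the final week of that treatment. The 4 groups were wild-type mice given MMI (hypothyroid, n = 4), wild-type mice given MMI and T3 (hyperthyroid, n = 4), and the same treatments in mice labelled Thrb-KO, deficient in the gene for the thyroid hormone receptor TRβ (n = 5 each). Peak lists came from other mice: TRβ binding in untreated pituitary and untreated cerebral cortex of mice with a biotin-tagged receptor (HAB;BirA, against BirA controls), and T3-regulated open chromatin (ATAC-seq) of nuclei immunopurified from hypothyroid and hyperthyroid Rosa26Sun1-GFP; Thrb2-Cre mice (n = 4 each), in which Cre from the b2 promoter of Thrb marks anterior pituitary cells.

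Glycolysis splits glucose into pyruvate and yields a small amount of ATP, with early steps of which hexokinase and phosphofructokinase spend ATP and late steps of which phosphoglycerate kinase and pyruvate kinase return it. Pyruvate is then reduced to lactate or enters the mitochondrion, where the pyruvate dehydrogenase complex, held in check by the Pdk kinases, feeds acetyl groups to the TCA cycle. Many steps are served by isozymes from separate genes that differ in tissue and regulation, and thyroid hormone is a classic stimulus of fuel use in liver, muscle and heart. TRβ is a nuclear receptor that regulates genes from chromatin sites and that is prominent in the pituitary, where T3 represses thyrotropin.

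The libraries held between 21453548 and 55273749 reads assigned to transcripts. Thrb RNA did not separate the genotypes in the direction of the deletion. It ranged from 239 to 297 CPM in hypothyroid wild-type libraries, from 72.4 to 124 CPM in hyperthyroid wild-type libraries, from 239 to 295 CPM in hypothyroid Thrb-KO libraries and from 228 to 301 CPM in hyperthyroid Thrb-KO libraries. The table gives a total per transcript and does not show the deleted part, so these values check nothing about the knockout. Replicates 1 and 2 of every group stood apart from replicates 3 to 5, with Lars2 between 2571 and 3420 CPM in the former and between 53.2 and 95.1 CPM in the latter, and each comparison was therefore also made within each of these library sets. Pituitary hormone genes were abundant in all libraries, skeletal muscle markers summed to at most 1.79 CPM, and among 33 marker genes tested T3 raised Gh and Prl and lowered Tshb, Cga and Trhr in wild type, while in Thrb-KO 1 was called higher and 3 lower. The sum of the 3 thyrotroph markers ranged from 8941 to 17535 CPM in hypothyroid and from 1197 to 2077 CPM in hyperthyroid wild-type libraries, and from 8727 to 11244 and from 1458 to 1579 CPM in the corresponding Thrb-KO libraries. Its part in the results below was not tested, and in whole glands fewer cells of a type and less RNA per cell cannot be told apart.

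Some members share sequence with other places in the genome, which limits what their counts mean. The share of 50-base windows of the longest annotated coding transcript that also occurred elsewhere in the mm9 genome was 92.9% for Pgk1, 91.9% for Pgam1, 85.6% for Gapdh and 72.2% for Eno1. The mean levels of these genes over the 18 libraries were 3.88 CPM for Pgk1, 3.48 CPM for Pgam1, 0.873 CPM for Gapdh and 19.7 CPM for Eno1. These genes encode abundant housekeeping enzymes, and their counts are uncertain. The share was 41.4% for Pkm2, 34.7% for Pdhb, 33.6% for Ldhb, 31.4% for Gpi1, 29.1% for Ldha, 23.6% for Tpi1 and 14.8% for Aldoa, and the remaining 29 members had at most 4.82%.

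**Figure D1:**
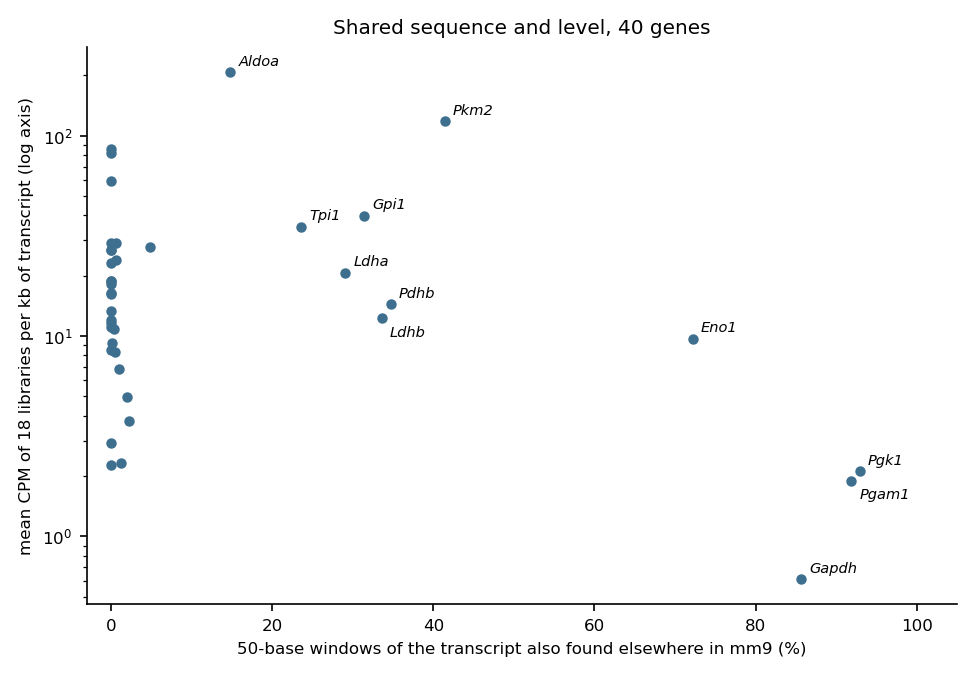
Each point is 1 of the 40 genes, with the percentage of its transcript's 50-base windows found elsewhere in mm9 on the x axis and its mean CPM over 18 libraries, divided by the length of that transcript in kb, on a log y axis. Gapdh, Pgam1 and Pgk1, with 85.6% to 92.9% shared windows, lie at 0.615, 1.90 and 2.13 CPM per kb.

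T3 in wild-type pituitary raised 3 of the 39 members tested and lowered 6. A gene was called when its Benjamini-Hochberg adjusted p in limma was under 0.05 and its change was at least 1.5-fold. Among all 13145 genes tested, 3.87% were called higher and 5.59% lower, and 9.46% were called in either direction. Of these all-gene calls 40.9% were higher, and 50.5% were after rescaling by TMM factors, which moved the median of all genes from -0.04 to 0.02. The genes that rose were Hk2, Aco1 and Slc2a3, and the genes that fell were Eno2, Pdk4, Pfkp, Mdh1, Ldhb and Aldoa. The groups did not overlap for 4 higher and 6 lower members, beside 5.66% and 11.7% of all genes. All 9 called members changed in the same direction with an adjusted p under 0.05 within both library sets. The count was 6 without hypothyroid wild-type replicate 3, where 463 of all genes were called higher and 740 lower. It was 11 without hyperthyroid wild-type replicate 3, where 650 were called higher and 684 lower. The median log2 fold change was -0.08 over the 39 members and -0.04 over all genes tested. By step, 1 of 2 glucose transporters, 3 of 11 genes of the early glycolytic steps, 1 of 5 of the late steps, 2 of 8 of lactate and pyruvate entry and 2 of 13 TCA cycle and related genes were called.

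**Figure D2:**
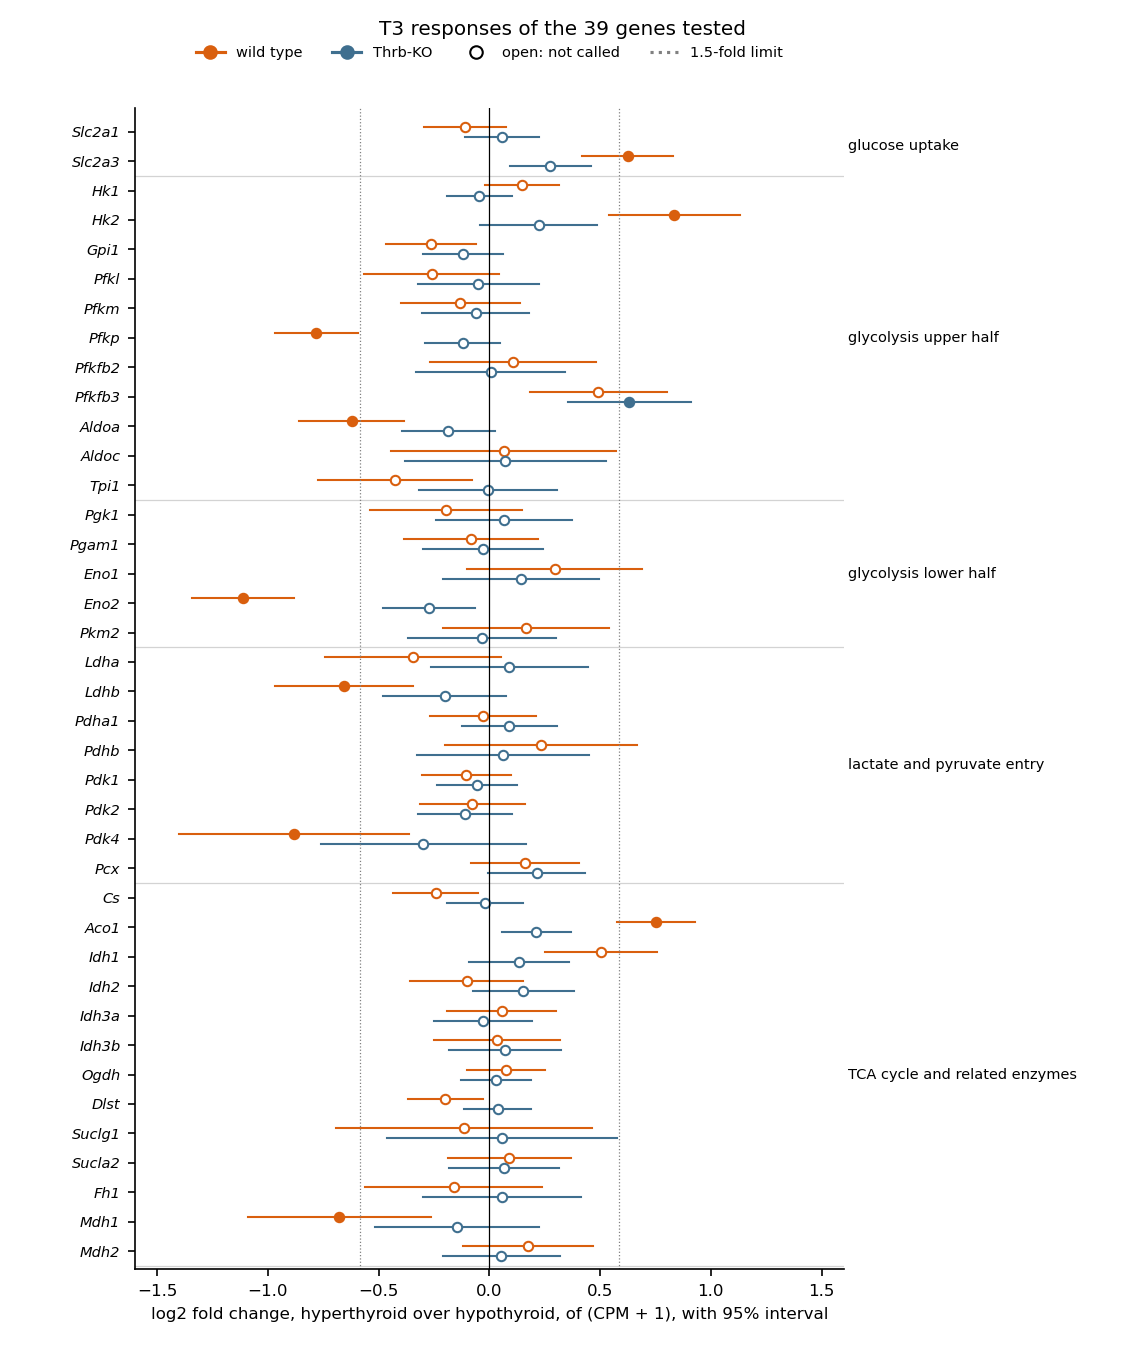
Each row is 1 of the 39 genes tested, with the log2 fold change of (CPM + 1), hyperthyroid over hypothyroid, on the x axis for wild type (orange) and Thrb-KO (blue), 95% intervals as lines, filled points for called changes and dotted lines at 1.5-fold. In wild type 9 points are filled, from -1.11 for Eno2 to 0.83 for Hk2, and in Thrb-KO the filled point is Pfkfb3 at 0.63.

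Glucose uptake in neural and endocrine cells depends on facilitative transporters, of which Slc2a3 encodes the high-affinity GLUT3 and Slc2a1 the widespread GLUT1. Slc2a3 measured 9.62, 9.39, 9.23 and 8.70 CPM in replicates 1 to 4 of hypothyroid wild type and 15.4, 15.5, 13.1 and 15.2 CPM in hyperthyroid wild type. In Thrb-KO it measured 10.2, 10.5, 10.8, 11.1 and 8.22 CPM without T3 and 11.2, 11.3, 13.8, 12.6 and 13.6 CPM with T3. The groups did not overlap in either genotype. The log2 fold change of Slc2a3 was 0.62 in wild type (SE 0.10, adjusted p = 0.000114 in limma) and 0.27 in Thrb-KO (SE 0.09, adjusted p = 0.166), and the difference between the 2 responses did not pass (-0.35, SE 0.13, adjusted p = 0.16). Slc2a1 gave -0.11 in wild type and 0.06 in Thrb-KO for T3 and was not called in any comparison.

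Hk2 encodes the inducible hexokinase that commits glucose to metabolism, and Hk1 the constitutive form. Hk2 measured 13.5, 12.6, 8.81 and 12.2 CPM in hypothyroid wild type and 26.5, 23.7, 18.9 and 18.2 CPM in hyperthyroid wild type. Its values in Thrb-KO were 9.57, 9.36, 8.25, 7.07 and 7.32 CPM without T3 and 9.18, 11.4, 9.15, 8.96 and 10.5 CPM with T3. The hyperthyroid wild-type libraries were above every other library, and the Thrb-KO groups overlapped each other. T3 raised Hk2 by 0.83 on the log2 scale in wild type (SE 0.14, 1.78-fold, adjusted p = 0.000254), against 0.22 in Thrb-KO (SE 0.13, adjusted p = 0.814). The difference between the responses was -0.61 (SE 0.19), with an adjusted p of 0.0714 in limma without a block and 0.0109 with the replicate number as a block, where it was called.

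Phosphofructokinase, which controls the pace of glycolysis, is built from the products of Pfkl, Pfkm and Pfkp, and Pfkfb3 makes the sugar phosphate that activates it. Pfkp measured 59.4, 57.1, 65.9 and 58.1 CPM in hypothyroid wild type and 37.2, 34.1, 33.2 and 33.8 CPM in hyperthyroid wild type. Thrb-KO libraries gave 58.1, 55.4, 65.6, 68.9 and 70.6 CPM without T3 and 56.5, 52.0, 58.9, 64.5 and 59.9 CPM with T3. The 4 hyperthyroid wild-type libraries lay below all other libraries. Pfkp fell by 0.78 on the log2 scale in wild type (SE 0.09, adjusted p = 3.17e-06), against -0.12 in Thrb-KO (SE 0.08, adjusted p = 0.947). Pfkl and Pfkm were not called in any comparison, with log2 fold changes of -0.26 and -0.13 for T3 in wild type.

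Pfkfb3 was the member called for T3 in Thrb-KO. It measured 9.33, 9.69, 7.83, 7.79 and 6.43 CPM in hypothyroid Thrb-KO and 15.2, 15.0, 12.7, 12.7 and 10.7 CPM in hyperthyroid Thrb-KO. In wild type it measured 11.1, 11.9, 8.95 and 10.1 CPM without T3 and 15.4, 18.9, 11.3 and 15.7 CPM with T3. The Thrb-KO groups did not overlap, and the wild-type groups did through replicate 3 of the hyperthyroid group. T3 raised Pfkfb3 by 0.63 in Thrb-KO (SE 0.13, 1.55-fold, adjusted p = 0.0123) and gave 0.49 in wild type (SE 0.15, adjusted p = 0.0241, below the fold limit). The difference between the responses was 0.14 (SE 0.20, adjusted p = 0.924). The call in Thrb-KO was lost without hypothyroid replicate 5 (0.56) and without hyperthyroid replicate 1 (0.58), and Pfkfb3 was called in wild type without hyperthyroid replicate 3 (0.62).

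Aldoa encodes aldolase A, which cleaves fructose bisphosphate. It measured 370.3, 338, 434 and 432 CPM in hypothyroid wild type and 238, 222, 288 and 273 CPM in hyperthyroid wild type. In Thrb-KO it measured 318, 319.7, 343, 339 and 364 CPM without T3 and 274, 246, 338, 307 and 324 CPM with T3. The wild-type groups did not overlap and the Thrb-KO groups did. Aldoa fell by 0.62 in wild type (SE 0.11, adjusted p = 0.000484), close to the 1.5-fold limit, and the call was lost in 7 of 33 alternatives, in which its adjusted p stayed below 0.05. Without hypothyroid replicate 3 or 4 or hyperthyroid replicate 2 of wild type, the change was between -0.58 and -0.56. In Thrb-KO it was -0.18 (SE 0.10, adjusted p = 0.777).

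Eno2 encodes the enolase of neurons and neuroendocrine cells, and Eno1 the widespread form. Eno2 measured 96.3, 88.0, 115 and 108 CPM in hypothyroid wild type and 47.9, 40.6, 42.05 and 56.7 CPM in hyperthyroid wild type. Thrb-KO libraries held 93.4, 88.0, 98.1, 98.0 and 100.7 CPM without T3 and 72.6, 70.1, 88.2, 78.0 and 87.1 CPM with T3. The hyperthyroid wild-type libraries were below all others, and in Thrb-KO the groups met at replicate 3 of the hyperthyroid group. Eno2 fell by 1.11 in wild type (SE 0.11, 2.16-fold, adjusted p = 6.15e-07), against -0.27 in Thrb-KO (SE 0.10, adjusted p = 0.281). Eno1 was not called in any comparison.

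Ldhb encodes the lactate dehydrogenase subunit of oxidative tissues. It measured 21.8, 19.4, 24.4 and 26.0 CPM in hypothyroid wild type and 11.3, 13, 16.2 and 16.4 CPM in hyperthyroid wild type. Its Thrb-KO values were 13.1, 13.6, 13.8, 16.96 and 18.1 CPM without T3 and 11.03, 10.2, 15.4, 14.6 and 14.1 CPM with T3. The hypothyroid wild-type libraries were above all other libraries. Ldhb fell by 0.66 with T3 in wild type (SE 0.15, adjusted p = 0.00341), and by 0.56 without hyperthyroid replicate 1, where the call was lost. In Thrb-KO the change was -0.20 (SE 0.13, adjusted p = 0.948), and the difference between the responses was 0.45 (SE 0.20, adjusted p = 0.269).

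Pdk4 encodes a kinase that shuts off pyruvate dehydrogenase during fasting and fat oxidation. It measured 15.3, 16.5, 33.4 and 19.0 CPM in hypothyroid wild type and 10.2, 8.74, 7.99 and 16.5 CPM in hyperthyroid wild type. In Thrb-KO its level was 9.19, 10.5, 14.2, 17.2 and 9.27 CPM without T3 and 12.6, 8.13, 9.15, 9.62 and 7.83 CPM with T3. The wild-type groups overlapped, with replicate 3 of the hypothyroid group highest and replicate 4 of the hyperthyroid group level with the lower hypothyroid libraries. Pdk4 fell by 0.88 in wild type (SE 0.25, adjusted p = 0.0155), the least precise of the called changes. Without hypothyroid replicate 3 it fell by 0.65 with an adjusted p of 0.065 and was not called. Nor was it called with all libraries in an unmoderated 2-group test on CPM, where the unadjusted p was 0.0687. In Thrb-KO the change was -0.30 (SE 0.22, adjusted p = 1.0). Pdk1 and Pdk2 were not called in any comparison.

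Pdk4 also had a pituitary TRβ peak and a T3-regulated ATAC peak at the same place, upstream of the gene. The gene spans chr6:5433351-5446309 on the minus strand of mm9, the TRβ peak chr6:5459501-5459850 (17 HAB reads and 2 control reads) and the ATAC peak chr6:5459352-5460145. The ATAC list holds both peaks that T3 increased and peaks that it depleted, and no direction is given here for any ATAC peak. The TRβ peak was centred 13366 bases before the annotated gene start, outside any coding gene. The consensus for TRβ is a direct repeat of AGGTCA with a spacer of 4 bases (DR4), searched as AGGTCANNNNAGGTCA on both strands with at most 2 mismatches in the 12 fixed bases. The central 300 bases, shown because Pdk4 was the called member with a TRβ peak that overlapped a T3-regulated ATAC peak within 20 kb, held no such match. Near Ldhb, another called member, a pituitary TRβ peak (chr6:142406551-142407000, 42 HAB reads and 2 control reads) also overlapped an ATAC peak (chr6:142406568-142406888), but it lay within Gys2, 31769 bases from Ldhb.

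Pdk4 upstream peak, mm9 chr6:5459526-5459825, plus strand: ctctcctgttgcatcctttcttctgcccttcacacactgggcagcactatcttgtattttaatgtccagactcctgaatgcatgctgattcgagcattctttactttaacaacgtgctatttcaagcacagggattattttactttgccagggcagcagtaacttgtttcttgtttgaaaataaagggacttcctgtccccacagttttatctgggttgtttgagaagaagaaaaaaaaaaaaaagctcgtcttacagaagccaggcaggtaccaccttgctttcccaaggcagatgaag

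Aco1 encodes the cytosolic aconitase, which without its iron-sulfur cluster acts as an iron-regulatory protein. It measured 21.1, 21.9, 25.5 and 23.3 CPM in hypothyroid wild type and 37.4, 41.8, 35.2 and 43.0 CPM in hyperthyroid wild type. Thrb-KO libraries gave 25.1, 26.6, 26.9, 28.3 and 26.4 CPM without T3 and 28.9, 29.0, 32.5, 31.7 and 33.3 CPM with T3. The groups did not overlap in either genotype, and the hyperthyroid wild-type libraries were above all others. T3 raised Aco1 by 0.75 in wild type (SE 0.08, 1.68-fold, adjusted p = 2.33e-06), against 0.21 in Thrb-KO (SE 0.07, adjusted p = 0.259). The difference between the responses was -0.54 (SE 0.11, adjusted p = 0.00613), short of the fold limit.

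Aco1 carried 2 pituitary TRβ peaks within its gene body (chr4:40090114-40146042, plus strand, mm9). The first, chr4:40090401-40090750, lay in the 5′ untranslated part of the gene, centred 461 bases after its start, with 17 HAB reads and 1 control read and overlapped a cortex peak by 350 bases. The second, chr4:40103401-40103650, lay in an intron 13411 bases after the gene start, with 26 HAB reads and 2 control reads, and held 2 DR4 matches with 2 mismatches each, at chr4:40103502-40103517 and chr4:40103528-40103543. Its full 250 bases are shown, with both matches in capitals, because Aco1 was the T3-raised member with a called change and a pituitary peak. Of the 1369 pituitary TRβ peaks of that length, 19.1% held at least 1 such match.

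Aco1 intron peak, mm9 chr4:40103401-40103650, plus strand: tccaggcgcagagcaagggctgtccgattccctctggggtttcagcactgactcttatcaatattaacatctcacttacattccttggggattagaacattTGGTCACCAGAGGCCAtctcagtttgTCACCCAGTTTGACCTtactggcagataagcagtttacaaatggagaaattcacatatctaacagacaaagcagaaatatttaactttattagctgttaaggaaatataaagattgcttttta

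Idh1 and Mdh1 encode the cytosolic partners of mitochondrial enzymes, making NADPH and serving the malate-aspartate shuttle. Idh1 measured 19.7, 20.3, 24.9 and 23.9 CPM in hypothyroid wild type and 30.0, 27.8, 34.2 and 35.8 CPM in hyperthyroid wild type, without overlap. Its values in Thrb-KO were 21.1, 22.5, 26.4, 28.2 and 28.0 CPM without T3 and 24.4, 24.7, 28.3, 32.4 and 29.1 CPM with T3, with overlap. The log2 fold change of Idh1 in wild type was 0.51 (SE 0.12, adjusted p = 0.00493), below the fold limit, and in Thrb-KO it was 0.13 (SE 0.11, adjusted p = 1.0). edgeR and DESeq2 on the recovered reads called Idh1 in wild type.

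Mdh1 measured 177, 169, 277 and 257 CPM in hypothyroid wild type and 118, 111, 151 and 162 CPM in hyperthyroid wild type. In Thrb-KO its level was 149, 142, 182, 201 and 210.1 CPM without T3 and 123, 124, 179.7, 181 and 197 CPM with T3. Replicates 1 and 2 were below replicates 3 to 5 in every group. Mdh1 fell by 0.68 in wild type (SE 0.20, adjusted p = 0.0196), by 0.59 within replicates 1 and 2 and by 0.76 within replicates 3 and 4. Without hypothyroid replicate 3 or 4, or hyperthyroid replicate 1 or 2, of wild type its adjusted p was between 0.0555 and 0.0772, and the call was lost. In Thrb-KO the change was -0.15 (SE 0.18, adjusted p = 1.0).

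**Figure D3:**
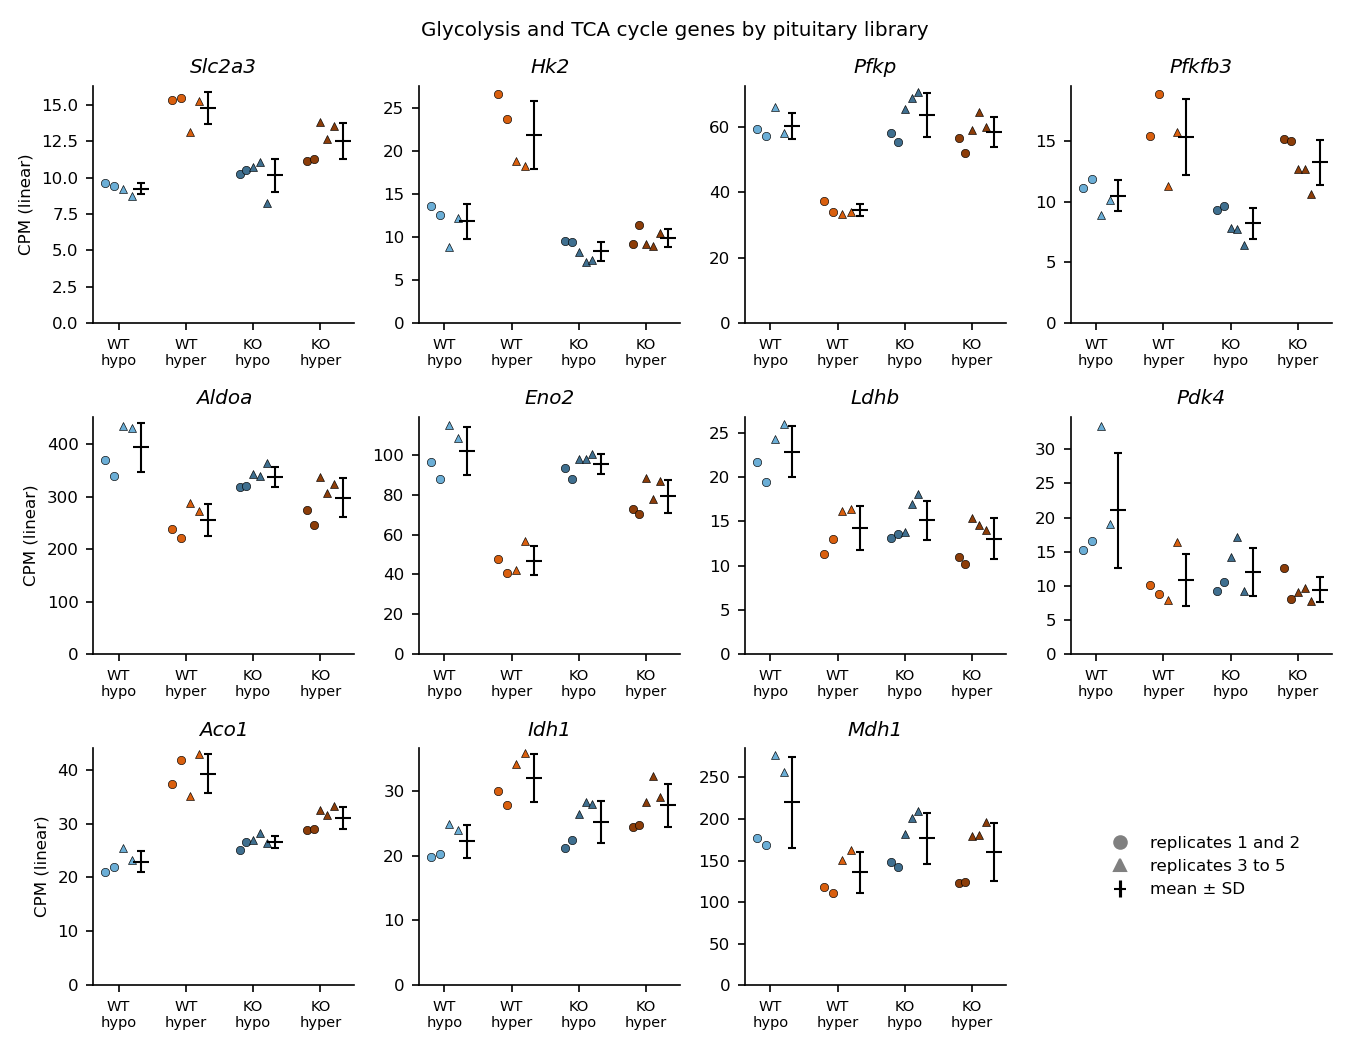
Each panel is 1 named gene, with CPM on a linear y axis from 0 and the 4 groups on the x axis (WT, wild type; KO, Thrb-KO). Points are libraries, with circles for replicates 1 and 2 and triangles for replicates 3 to 5, and bars are mean ± SD. The hyperthyroid wild-type libraries of Hk2 (18.2 to 26.5 CPM) lie above, and those of Pfkp (33.2 to 37.2 CPM) and Eno2 (40.6 to 56.7 CPM) below, all other libraries.

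In Thrb-KO pituitary, T3 changed 1 of the 39 members, Pfkfb3, beside 1.01% of all genes called in either direction (0.411% higher and 0.601% lower). The median log2 fold change was 0.04 over the members and -0.01 over all genes tested. At an unadjusted p under 0.05, 3 members were higher and 1 was lower, beside 1077 of all 13145 genes in either direction. The groups did not overlap for 3 higher members, Pfkfb3, Aco1 and Slc2a3, beside 2.05% of all genes, and for 0 lower members, beside 3.53%.

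Whether the T3 response differed between the genotypes was tested as an interaction, the response in Thrb-KO minus that in wild type. It was called for 2 of the 39 members, both more positive in Thrb-KO, beside 2.48% of all genes called in that direction, 1.78% in the other and 4.26% in either. The share of all-gene calls that were more positive was 58.2%, and 47.7% after TMM rescaling. These were Eno2 (0.84, SE 0.15, adjusted p = 0.00159) and Pfkp (0.66, SE 0.12, adjusted p = 0.00197), 2 of the 6 members that T3 lowered in wild type. Both were also called within each library set. For the other 4 members that fell in wild type, Aldoa, Ldhb, Pdk4 and Mdh1, the interaction ranged from 0.44 to 0.58 with adjusted p-values from 0.115 to 0.481. Without hyperthyroid wild-type replicate 3, the interaction was called for 5 members. Over all genes, that fit called 325 more positive and 373 more negative, against 326 and 234 with all libraries.

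Between the genotypes, no member was called in hypothyroid mice, beside 1.01% of all genes called higher and 2.01% lower (3.02% in either direction). At an unadjusted p under 0.05, 3 members were higher and 5 lower in limma, beside 2415 of all 13145 genes in either direction. edgeR called 1 member, beside 149 genes called higher and 387 lower. DESeq2 called 2, beside 162 genes higher and 418 lower. Ldhb was lower in Thrb-KO by 0.57 (SE 0.14, adjusted p = 0.017, short of the fold limit) and Hk2 by 0.45 (SE 0.13, adjusted p = 0.0495). With the replicate number as a block, 2 members were called lower in Thrb-KO, Ldhb (-0.62, adjusted p = 0.000152) and Pdk4 (-0.66, adjusted p = 0.0463). Among all genes, 182 were called higher and 310 lower with that block. Without the block, 1 member was called on leaving out hypothyroid wild-type replicate 1 or 2, hyperthyroid wild-type replicate 3 or 4 or hypothyroid Thrb-KO replicate 5, and 2 on leaving out hypothyroid Thrb-KO replicate 4. Over all genes, these fits called 116 to 155 higher and 236 to 295 lower. Among the 33 marker genes tested, 4 were called lower in Thrb-KO in the same comparison, the thyrotroph marker Trhr (-1.35, adjusted p = 8.07e-07), Pcsk2 of corticotrophs and melanotrophs (-0.68, adjusted p = 0.0106) and the immune markers Csf1r (-0.77, adjusted p = 0.000759) and C1qa (-0.84, adjusted p = 0.00372), and the 4 immune markers summed to 37.7 to 46.5 CPM in Thrb-KO against 67.7 to 74.98 CPM in wild type. Their part in these differences was not tested.

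In hyperthyroid mice, 3 members differed between the genotypes. Hk2 was lower in Thrb-KO by 1.06 (SE 0.13, 2.09-fold, adjusted p = 2.33e-05), while Eno2 was higher by 0.75 (SE 0.10, adjusted p = 6.91e-05) and Pfkp by 0.74 (SE 0.08, adjusted p = 7.77e-06). Among all genes tested, 2.54% were called higher and 2.32% lower, and 4.86% in either direction. Higher calls made up 52.3% of them, and 39.8% after TMM rescaling. Aco1 was lower in Thrb-KO by 0.33 (SE 0.08, adjusted p = 0.00888), short of the fold limit. This comparison shares its libraries with the T3 responses and the interaction, so it is no separate evidence for them. Among the 33 marker genes, Pou1f1 (0.63, adjusted p = 0.0176) and Trhr (0.69, adjusted p = 0.000657) were called higher and Aldh1a2 (-0.59, adjusted p = 0.0009) and C1qa (-0.62, adjusted p = 0.0205) lower in Thrb-KO, and their part in these differences was not tested. The 3 calls were kept in all 18 fits that left out 1 library.

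Ratios of 2 isozyme genes within a library cancel the scaling of the libraries apart from the added pseudocount, and 12 such ratios were compared between hypothyroid and hyperthyroid mice within each genotype by a two-sided exact permutation test. In wild type 7 of 12 ratios did not overlap between the groups, and in Thrb-KO 2 of 12. Each of these ratios holds a member whose own groups did not overlap in that genotype, so they are no separate result. An exact p under 0.05 was found for 7 ratios in wild type and 4 in Thrb-KO. No share over other gene pairs was computed to set beside these counts. After Benjamini-Hochberg adjustment over all 24 tests none passed, and the lowest adjusted p, 0.0686, was shared by 10 tests. The smallest exact p the design allows is 0.0286 for 4 libraries against 4 and 0.00794 for 5 against 5. The ratios were also taken as pairs of the same replicate number, a comparison chosen after seeing the data. The libraries showed no pairing by number within a library set, so these pairs match libraries by set only. In all 4 pairs of wild type 10 of 12 ratios moved in one direction, and in all 5 pairs of Thrb-KO 6 of 12 did. Among the latter was Mdh1 to Mdh2, with differences from -0.26 to -0.15. An exact permutation test over pairs cannot go below 0.125 with 4 pairs or 0.0625 with 5, and its lowest adjusted p was 0.176. In wild type the log2 ratio of Eno2 to Eno1 went from 2.48 ± 0.13 to 1.07 ± 0.14 (SD, n = 4), and that of Mdh1 to Mdh2 from 1.35 ± 0.18 to 0.50 ± 0.28. Both had an exact p of 0.0286. The Eno2 to Eno1 ratio rests on the uncertain counts of Eno1.

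The log2 ratio of the transporters Slc2a3 to Slc2a1 went from -1.54 ± 0.09 to -0.81 ± 0.09 in wild type without overlap. In Thrb-KO it went from -1.44 ± 0.17 to -1.23 ± 0.0085 (SD, n = 5, exact p = 0.00794, adjusted p = 0.0686). For Pfkfb3 to Pfkfb2, paired activators of phosphofructokinase, the difference was 0.63 in Thrb-KO and 0.39 in wild type. Between cytosolic and mitochondrial isocitrate dehydrogenase, Idh1 to Idh2, the difference was 0.61 in wild type and -0.02 in Thrb-KO. The differences for the remaining ratios of wild type were 0.69 for Hk2 to Hk1, 0.69 for Aldoc to Aldoa, -0.52 for Pfkp to Pfkl, -0.81 for Pdk4 to Pdk2, -0.31 for Ldhb to Ldha, 0.13 for Pfkm to Pfkl and -0.03 for Pdk1 to Pdk2. Those of Thrb-KO were, in the same order, 0.27, 0.26, -0.07, -0.19, -0.29, -0.01 and 0.05. Eno2 to Eno1 differed by -0.42 in Thrb-KO and Mdh1 to Mdh2 by -0.20. In Thrb-KO the exact p in the permutation test was 0.0159 for Eno2 to Eno1 and 0.0397 for Ldhb to Ldha.

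**Figure D4:**
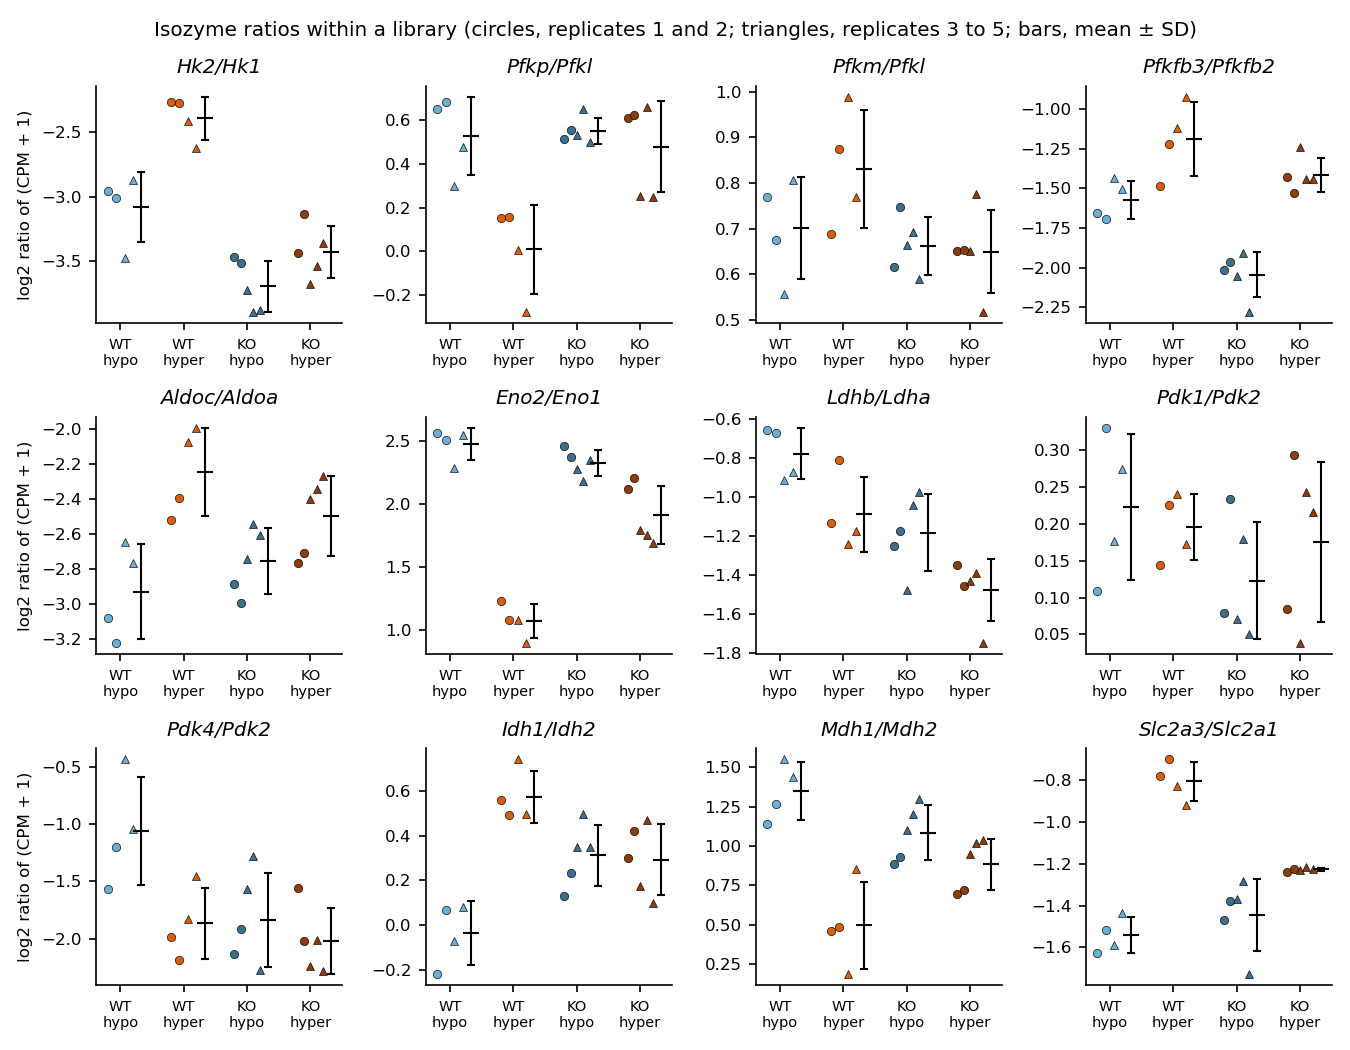
Each panel is 1 ratio of 2 isozyme genes, as the log2 ratio of (CPM + 1) within a library on the y axis and the 4 groups on the x axis, with symbols as in the plot of CPM by library and bars for mean ± SD. The wild-type groups separate for 7 ratios, including Eno2/Eno1 (mean 2.48 against 1.07), and the Thrb-KO groups for Pfkfb3/Pfkfb2 and Slc2a3/Slc2a1.

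The members that were not called in any comparison include most of the pathway. For T3 in wild type, genes of the early glycolytic steps not called in that comparison ranged from -0.43 for Tpi1 to 0.49 for Pfkfb3. Pfkfb3 was called for T3 in Thrb-KO. Uncalled genes of the late steps ranged from -0.20 for Pgk1 to 0.29 for Eno1. Uncalled genes of lactate and pyruvate entry ranged from -0.34 for Ldha to 0.23 for Pdhb. The mitochondrial TCA cycle enzymes Cs, Idh2, Idh3a, Idh3b, Ogdh, Dlst, Suclg1, Sucla2, Fh1 and Mdh2 were not called in any of the 5 comparisons. In wild type T3 gave them log2 fold changes from -0.24 for Cs, which starts the cycle as citrate synthase, to 0.17 for Mdh2. Gapdh, below the level filter, gave 0.19 (adjusted p = 0.334) in a fit of genes above 1 CPM in at least 4 libraries.

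Of 40 other genes of the pathway, 27 were tested, and T3 in wild type raised 2 and lowered 3, beside 9.46% of all genes called. Eno3, the enolase of muscle, fell from 57.4 ± 11.25 to 17.5 ± 2.54 CPM (SD, n = 4 each, log2 fold change -1.65, adjusted p = 3.37e-07). In Thrb-KO Eno3 measured 36.6 ± 5.45 CPM without T3 and 50.0 ± 8.63 CPM with T3 (n = 5 each), and its interaction of 2.08 passed (adjusted p = 4.87e-06). Slc16a1 and Slc16a3 encode monocarboxylate transporters that carry lactate and pyruvate across the cell membrane. Slc16a1 rose with T3 in wild type (0.64, adjusted p = 0.00163) and Slc16a3 fell (-0.70, adjusted p = 0.000213), and both interactions were called. Pdp2, a phosphatase that reactivates pyruvate dehydrogenase, rose (0.72, adjusted p = 0.000743), and G6pc3, a glucose phosphatase, fell (-0.63, adjusted p = 0.000242). None of the 27 was called for T3 in Thrb-KO by limma, edgeR or DESeq2, beside 1.01% of all genes in limma. An unadjusted p under 0.05 in limma was found for 2 of them, beside 1077 of all 13145 genes. Among genes above 1 CPM in at least 4 libraries, Slc2a4 was called, beside 82 genes called higher and 111 lower for T3 in Thrb-KO with that filter. Without T3 it reached at most 0.845 CPM in wild type and 0.887 CPM in Thrb-KO, and with T3 at least 1.865 and 1.447 CPM. Slc2a4 thus passed that filter only through the hyperthyroid groups, where it was higher, so this call is no separate support.

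Hypoxia induces many glycolytic genes, and a list of 12 hypoxia-induced genes was read for comparison. Of the 10 tested, T3 in wild type raised Higd1a (0.80, adjusted p = 0.0194) and lowered Ndrg1 (-0.74, adjusted p = 0.000151), beside 9.46% of all genes called, and the median of the 10 was -0.17 beside -0.04 over all genes tested.

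TRβ peaks lay within 20 kb of the gene body of 21 of the 40 members in pituitary, beside 41.3% of the 12898 tested genes with coordinates, and of 21 members in cerebral cortex, beside 34.8%. T3-regulated ATAC peaks lay near 6 members, Pfkfb3, Eno1, Pdk4, Pcx, Sucla2 and Fh1, beside 7.78%. The counts depended on the distance: with the gene body itself, 10, 13 and 1 members had a peak, beside 23.5%, 20.5% and 5.01% of all genes. For ATAC peaks the members' share was above that of all genes within 20 kb (15% against 7.78%) and below it in the gene body (2.5% against 5.01%). Peaks were called on merged replicates, so no value per replicate can be given. A peak near a gene need not act on it, and 12 members had peaks in both tissues.

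The 28 pituitary peaks near members held between 11 and 90 HAB reads with a median of 15.5, beside a median of 18 over all 8051 peaks, and 17 of the 28 lay outside the gene body. A DR4 match with at most 2 mismatches was found in 6 of them (21.4%), beside 20.9% of all pituitary peaks. Among these 28, the peak with the most reads lay 17372 bases before the start of Pcx, which encodes pyruvate carboxylase, the enzyme that refills the TCA cycle with oxaloacetate. It spanned chr19:4492851-4493350 with 90 HAB reads and 0 control reads, and overlapped both a cortex peak (36 HAB reads and 3 control reads) and a T3-regulated ATAC peak. The nearest annotated coding gene start was that of 2010003K11Rik. Pcx itself was not called, with log2 fold changes of 0.16 in wild type (SE 0.12, adjusted p = 0.427) and 0.21 in Thrb-KO.

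Upstream of Eno1, a pituitary peak (chr4:149604851-149605300, 28 HAB reads and 4 control reads) overlapped a T3-regulated ATAC peak (chr4:149604904-149605122) by 219 bases and held 2 DR4 matches. The match with 2 mismatches, chr4:149605056-149605071, lay inside the ATAC peak, and the match with 1 mismatch, chr4:149605122-149605137, shared 1 base with it. The peak was centred 5755 bases before the gene start. Of the 547 pituitary peaks of its length, 29.6% held a match with at most 2 mismatches. The 300 bases around the best match in the Eno1 and Pcx peaks are shown on the plus strand with every match in capitals, since these are the members with a DR4 match in a pituitary peak that also overlapped T3-regulated chromatin within 20 kb upstream in intergenic sequence.

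Eno1 upstream peak, mm9 chr4:149604980-149605279: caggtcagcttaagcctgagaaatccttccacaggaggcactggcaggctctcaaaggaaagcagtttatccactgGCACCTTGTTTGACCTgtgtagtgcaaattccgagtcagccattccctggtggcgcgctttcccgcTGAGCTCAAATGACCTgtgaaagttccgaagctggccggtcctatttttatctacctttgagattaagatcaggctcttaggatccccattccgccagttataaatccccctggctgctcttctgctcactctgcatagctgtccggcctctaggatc

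Pcx upstream peak, mm9 chr19:4492880-4493179: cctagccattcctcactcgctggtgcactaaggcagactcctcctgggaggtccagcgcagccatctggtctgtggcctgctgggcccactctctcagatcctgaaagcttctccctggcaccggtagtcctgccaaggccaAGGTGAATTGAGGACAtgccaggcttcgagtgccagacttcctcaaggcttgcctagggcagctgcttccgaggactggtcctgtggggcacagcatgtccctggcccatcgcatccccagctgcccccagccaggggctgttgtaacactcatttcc

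Read 5′ to 3′ on the strand of the match, the 8 matches in these 6 pituitary peaks compare as follows.

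Eno1 upstream, 1 mismatch: AGGTCATTTGAGCTCA

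Eno1 upstream, 2 mismatches: AGGTCAAACAAGGTGC

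Pkm2 downstream, in Gramd2: AGGGCAGGGTAGGTCA

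Pcx upstream: AGGTGAATTGAGGACA

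Aco1 intron, first match: TGGTCACCAGAGGCCA

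Aco1 intron, second match: AGGTCAAACTGGGTGA

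Fh1 upstream, in Kmo: AAGTCCTTTCAGGTCA

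Mdh2 gene body: AGGCCACTTCAGGCCA

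Of the members called for T3 in wild type, Pfkp, Eno2, Pdk4, Aco1 and Mdh1 had a pituitary TRβ peak within 20 kb, and Hk2, Slc2a3, Ldhb and Aldoa had none. The Pfkp peak lay in an intron (chr13:6632801-6633150, 15 HAB reads and 1 control read), 15048 bases after the gene start. The Eno2 peak (chr6:124695951-124696250, 13 HAB reads and 2 control reads) lay downstream within Atn1. Idh1 had an intronic peak of 17 HAB reads and 1 control read at chr1:65224701-65224850. The ATAC peak near Pfkfb3 lay 6405 bases beyond the end of the gene (chr2:11386175-11386652), and the pituitary TRβ list held no peak within 20 kb of Pfkfb3 or Hk2. Farther out, 33572 bases before the start of Pfkfb3 and with no coding gene start nearer, a pituitary peak of 93 HAB reads and 3 control reads (chr2:11457101-11457500) overlapped a cortex peak of 88 HAB reads and 7 control reads. The peaks near Sucla2 and Fh1 overlapped ATAC peaks, and neither gene was called in any comparison.

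**Figure D5:**
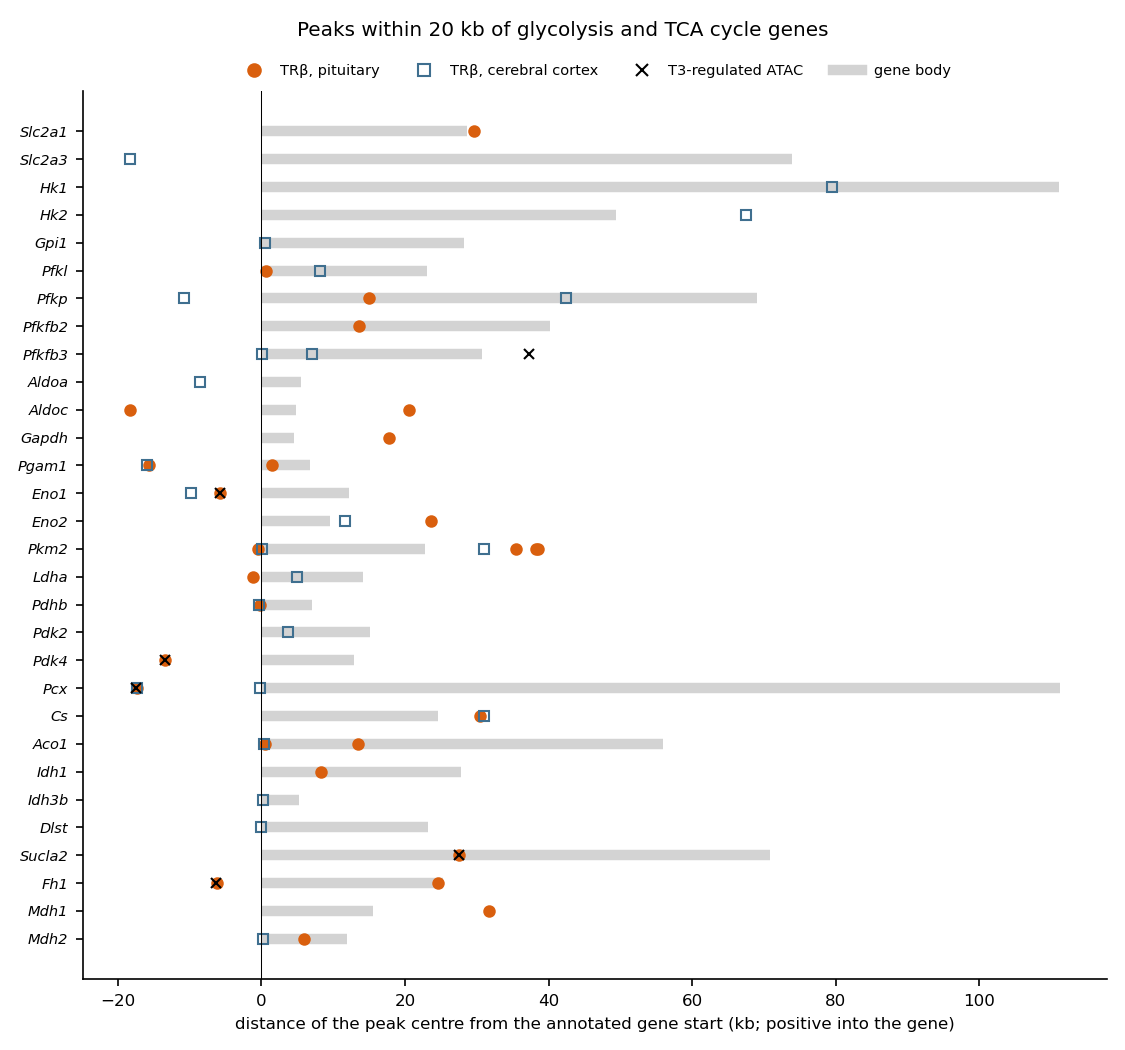
Each row is 1 of the 30 members with a peak within 20 kb, and the x axis is the distance of the peak centre from the annotated gene start in kb, positive into the gene. Orange points are pituitary TRβ peaks, blue squares cortex TRβ peaks, black crosses T3-regulated ATAC peaks and grey bars the gene body. ATAC crosses coincide with pituitary TRβ peaks at Eno1, Pdk4, Pcx, Sucla2 and Fh1, and 10 of the 40 members have no peak.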

How the data were processed

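RNA-seq of 18 pituitary libraries was deposited by the authors as CPM per RefSeq transcript, from single-end reads mapped to mm9 without a stated strand setting. Every CPM was a whole multiple of the value of 1 read (tolerance 0.02, 100% of values), and the recovered reads served edgeR and DESeq2. Members and gene lists were chosen with earlier results of these data known. The transcript with the highest mean CPM stood for a gene, and log2(CPM + 1) of genes above 1 CPM in all libraries was fitted with limma 3.58.1 (4 groups, trend) in R 4.3.3. CPM is not divided by length, so levels of different genes were set side by side per kb of the longest annotated coding transcript. The named members were those called in any comparison and those with adjusted p under 0.05 for T3 in wild type or the interaction. Members near pituitary or ATAC peaks were added by position.

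TRβ peaks were deposited with read counts per peak, fold enrichment as a ratio, p-value and FDR, called by the authors with SICER on merged replicates of HAB;BirA against BirA, of which counts and positions were used. HAB and control reads are not scaled to each other. The untreated control libraries were taken as BirA from their titles, although their genotype field repeats the HAB genotype. For ATAC the deposited adjusted p-values and scores of the authors' comparison were not used. Genes were taken from GENCODE M1 (mm9), and sequences from mm9.

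Same-numbered libraries deviated together (correlation 0.255 to 0.815 in every comparison), while libraries of different sets were negatively correlated. Libraries of the same set with other numbers also deviated together, with 0.621 to 0.755 for T3 in wild type. Across the T3 comparison, 1 of 4 wild-type and 2 of 5 Thrb-KO libraries correlated best with their own number. The deviations thus followed the library set and showed no pairing by number within it. Replicate number and library set were each also fitted as a block. The labels do not say whether libraries of a group were prepared separately, so p-values measure the spread between these libraries. No libraries of a group agreed within sampling noise. Ratios were tested with scipy 1.17.1. Alternatives were edgeR 4.0.16, DESeq2 1.42.0, other pseudocounts, filters and scalings, blocks, library sets and leaving out each library.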

Additional observations from a re-analysis of the deposited data

Results flagged for a closer look

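The interaction was called for Pfkp (0.66, SE 0.12, adjusted p = 0.00197 in limma) and Eno2 (0.84, SE 0.15, adjusted p = 0.00159), so the T3 responses of these genes differed between wild type and Thrb-KO. In wild type Pfkp fell by 0.78 and Eno2 by 1.11 on the log2 scale, with changes of -0.12 and -0.27 in Thrb-KO.

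Slc2a3 in hyperthyroid wild-type replicate 3 (13.1 CPM) lay apart from the other libraries of its group, with a gap to the nearest (15.2 CPM) of 0.897 of the group's range. It was the only library marked among 44 groups of the named members, and chance marks about 1 in 20 groups.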

How the results depend on the processing

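Of 203 alternative values, 172 stayed within 1.5 times the value reported. They were counts of called members, of members with a peak and of isozyme ratios past the adjusted p limit. The ratio counts were 0 in every alternative and are all among the 172. The T3 count in wild type was 6 to 11 members on leaving out each library in turn, which is within that limit. So was the count between hyperthyroid genotypes, with 3 in every such fit. For hypothyroid Thrb-KO against wild type, where no member was called, 1 was called with a pseudocount of 0.5 or 0.1, edgeR, unmoderated tests, TMM rescaling, within replicates 3 to 5 and relative to the median of all genes (chosen after seeing the data), and 2 with DESeq2, no fold limit, the replicate block, the library set as a block and within replicates 1 and 2. Leaving out each library gave 0 to 2. Over all genes, 133 were called higher and 264 lower as reported. These counts were 149 and 387 with edgeR, 162 and 418 with DESeq2, and 182 and 310 with the replicate block. The interaction was called for 4 members with edgeR, DESeq2 or TMM rescaling, where Hk2 and Aco1 were added, for 5 within replicates 1 and 2, and for 2 to 5 on leaving out each library. Over all genes it was called more positive for 326 and more negative for 234 as reported. These counts were 302 and 327 with edgeR, 348 and 384 with DESeq2, 274 and 301 with TMM rescaling, and 368 and 414 within replicates 1 and 2. With the replicate block the interaction was called for 3 members, and for 419 more positive and 334 more negative of all genes. Beside Hk2 there and Ldhb and Pdk4 in hypothyroid mice, that block changed no other call of a member. No isozyme ratio was called with or without the replicate block (chosen after seeing the data for the ratios). With the block this was fixed in advance, since its exact p cannot go below 0.125 in wild type or 0.0625 in Thrb-KO. It was also fixed for the ratios within 1 library set. There the exact p cannot go below 0.333 for 2 libraries against 2 or 0.1 for 3 against 3. The T3 count in Thrb-KO was 0 to 1 on leaving out each library. The causes were not tested.

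Members with a pituitary TRβ peak numbered 13 within 5 kb (32.5%, beside 30.2% of all genes), 10 in the gene body (25%, beside 23.5%) and 8 with the peaks of higher read count (20%, beside 24%). Members with a cortex peak numbered 13 in the gene body (32.5%, beside 20.5%), and members with an ATAC peak 1 within 5 kb (2.5%, beside 5.62%) and 1 in the gene body (2.5%, beside 5.01%). The members' share was thus below that of all genes for the pituitary peaks of higher read count and for ATAC peaks at these shorter distances. The alternative on the p-values of the ATAC list was not run.

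For single genes, ratios and the counts of called other pathway and hypoxia-induced genes, 2370 values kept their call and direction or stayed within 1.5 times. Another 20, all of them counts of those 2 lists, moved further. Among single genes and ratios, 49 values gained a call, 16 lost one and 13 turned direction, all of these 13 uncalled. Within replicates 1 and 2 those that turned were Pdk4 for T3 in Thrb-KO (0.0384), Pfkp between hypothyroid genotypes (-0.0381), Pdk4 between hyperthyroid genotypes (0.0929) and, for T3 in Thrb-KO, the ratios Pfkp/Pfkl (0.0824), Pdk4/Pdk2 (0.24) and Idh1/Idh2 (0.18). On leaving out each library, Pdk4 between hyperthyroid genotypes ranged from -0.26 to 0.0581, and for T3 Pdk1/Pdk2 in wild type ranged from -0.0647 to 0.0090, Pfkm/Pfkl in Thrb-KO from -0.0438 to 0.0208 and Idh1/Idh2 in Thrb-KO from -0.0648 to 0.0293. At these depths 3 reads equal 0.0543 to 0.14 CPM, beside means of 0.873 CPM for Gapdh and 3.48 CPM for Pgam1.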
